A study of Danio rerio with 12 samples.

Results

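Hearts of 24-month-old zebrafish (Danio rerio) were set against hearts of every other age sampled, to ask which transcripts differed at 24 months alone, with the difference absent before that age and reversed after it. The 24-month group held 3 of the 12 libraries, taken by their age label, and the other 9 came from fish of 6, 12 and 36 months, 3 libraries per age. Total RNA was extracted from hearts with Trizol and sequenced on an Illumina HiSeq. The fish of all 4 ages were kept in ordinary husbandry, and the labels name no treatment, mutant allele or transgene. Sex, strain, the number of hearts in a library and the hour of collection are not given in the sources used here. Nothing says that libraries of an age came from separate fish, so the p-values below measure the spread between libraries, which may be technical.

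The vertebrate circadian clock is a feedback loop in which the activators Clock and Bmal (encoded by the clock and arntl genes) switch on period, cryptochrome and Rev-erb (nr1d) genes, whose proteins then repress the activators or their transcription. The activator arm and the period and Rev-erb arm therefore peak at different times of day. In zebrafish the loop runs in most tissues, the heart included, and is set directly by light.

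Levels are FPKM as deposited, that is sequenced fragments scaled to gene length and to library size. A gene was tested if its mean over the 12 libraries was at least 1 FPKM, which 16223 of 50640 genes reached. The log2 difference is the mean of log2(FPKM + 1) at 24 months minus the mean of the 3 other age means, tested with limma (two-sided) and adjusted by Benjamini-Hochberg over all 16223 genes at a threshold of 0.05. This scale understates the change of genes near 1 FPKM. A gene is called set apart if, beyond this contrast, 24 months also differed from 6, from 12 and from 36 months, each at an adjusted p under 0.05 and in the same direction. Those 3 comparisons share the 24-month libraries and are not independent of each other.

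The libraries held 7333060 to 11145869 reads in genes. The heart muscle markers myh6 and nppa were abundant in every library, at 977 to 1375 FPKM and at 3884 to 4698 FPKM at 24 months. Of the 9 heart muscle markers 5 had a mean of at least 1 FPKM. vmhc and tnnt2a, which loci without a name overlap in the annotation, stayed under it. So did nppb and ttn.2, at 0.301 FPKM or less in each library. Germ cell markers summed to at most 0.241 FPKM in each library, but markers of other tissues were present. Those of hepatocytes summed to 30.0 to 57.5 FPKM at 24 months, 4.20 to 169 at 6, 8.85 to 623 at 12 and 0.854 to 5.47 at 36 months. Skeletal muscle markers summed to 3.27 to 4.99 FPKM at 24 months and to as much as 108 FPKM at 36 months. The epithelial and skin gene krt4 was at 184 to 274 FPKM at 24 months and 157 to 622 elsewhere. The source of these transcripts was not tested. Replicate 1 of 6 months stood apart from the rest: its gapdh level was 6766 FPKM, against 17938 to 22596 FPKM in the other 5 libraries of 6 and 12 months. Leaving out replicate 1 of 6 months raised the number of genes past the threshold from 55 to 171 and the number set apart from 13 to 26. Without replicate 3 of 12 months these numbers were 118 and 12.

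At 24 months 55 genes passed the threshold, 0.339% of those tested. Of these, 34 were higher (0.21%) and 21 lower (0.129%) than the mean of the other ages. The split depended on scaling: with every library brought to an equal sum it was 57 higher and 19 lower, and without mitochondrial and haemoglobin genes 56 and 19. An unadjusted p under 0.05 was reached by 2208 genes (13.6%), 1150 of them higher and 1058 lower. The same contrast drawn for each other age in turn gave 223 genes at 6 months (1.37%), 49 at 12 months (0.302%) and 1062 at 36 months (6.55%). Taken pairwise, 24 months differed from 6 months in 115 genes (0.709%), from 12 months in 116 (0.715%) and from 36 months in 181 (1.12%).

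Of the 55 genes, 37 are protein-coding, 17 are loci without a name and 1, fzd1, is annotated as a pseudogene. For 52 of them 24 months was the highest or the lowest of the 4 age means, which was also so for 44.2% of all genes tested. The 3 others, all counted as lower, were nr1d1 and the loci without a name at chr22:593555-596306 and chr2:10022931-10023290. Both loci averaged under 1 FPKM at 6, 12 and 24 months and 18.6 and 14.7 FPKM at 36 months. They entered the test and passed only through their 36-month level. In 41 of the 55 the 24-month values lay outside the range of the other 9 libraries, 26 above and 15 below it, against 2.82% of all genes tested. Since the contrast chose these genes, that share describes them and is no further test. Of the 55 genes 6, among them soul5l, itga10 and cacna1ab, averaged under 1 FPKM at the other ages and so entered the test only through their 24-month level.

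The genes set apart numbered 13 (0.0801%), 8 higher and 5 lower. The higher named genes were sstr5, nr1d4b, rcan3, cdkn1a, ypel3, lhfpl2a and si:dkey-165a24.9, and the lower ones per3, hsf2 and nr1d2b. si:dkey-165a24.9 is overlapped by a locus without a name and is uncertain, and the remaining 3 are such loci themselves. In all 13 the 24-month values did not overlap those of the other 9 libraries, which the definition favours. The step from 6 to 12 months passed the threshold in only 3 genes of the whole table (0.0185%) and in none of the 13 (log2 differences from -0.39 to 0.54, lowest adjusted p 0.582), a share that at this background says little about them. In each of them the step from 6 to 12 months was under 50% of the step from 12 to 24 months in size. At 36 months the mean was back inside the range of the 6- and 12-month libraries for 9 of the 13, with sstr5, si:dkey-165a24.9, nr1d2b and hsf2 the exceptions. The definition, which asks that 24 months differ from 12 and from 36 months, also favours the small early step and the return. Both describe the 13 genes and are no further test.

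**Figure D1:**
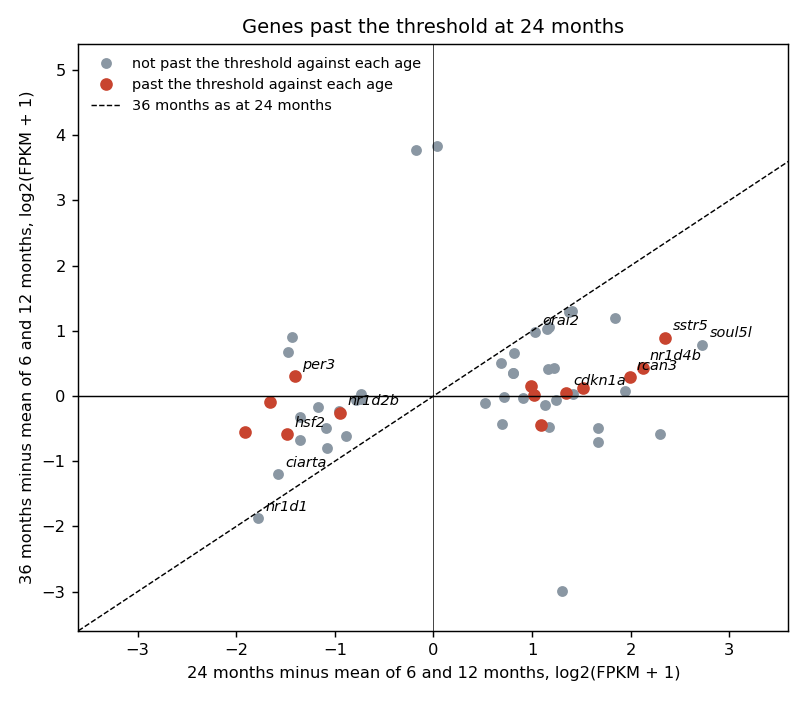
Each point is 1 of the 55 genes past the threshold, with the 24-month difference from the mean of 6 and 12 months on the horizontal axis and the 36-month difference from the same mean on the vertical axis, both in log2(FPKM + 1). Points on the horizontal zero line had returned by 36 months and points on the dashed diagonal had kept their 24-month level. The 13 genes set apart (red), which by definition differ between 24 and 36 months, lie closer to the zero line than to the diagonal. orai2, ciarta and nr1d1 lie close to the diagonal.

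How far a 24-month difference had gone by 36 months was measured as the share of the gap between 24 months and the mean of 6 and 12 months that was no longer present at 36 months, on the log2 scale. Among the 52 genes with an extreme 24-month mean, more than 75% of the gap was gone for 30 genes, 20 higher and 10 lower. The share has no upper limit, so these 30 include genes that lay beyond the younger mean at 36 months. Among the higher genes, efnb3b (161%), unc119b (141%) and a locus at chr8:44346799-44351675 (328%, 0 FPKM at 36 months) lay below that mean. Among the lower genes, per3 (122%) lay above it. Between 25% and 75% was gone for 15 genes, and under 25% for 7. These 7 had kept most of their 24-month difference, and the named ones are orai2, slc23a2, ches1, zgc:77287 and ciarta. Since 36 months is part of the contrast that chose the genes, the contrast favours those that had moved back, and these counts are descriptions.

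Of the 46 gene lists described, that of the circadian clock had the most members past the threshold. Of the genes on that list 47 are in the deposited data, and 31 were tested. At 24 months 2 rose (nr1d4b and arntl2), 4 fell (per3, nr1d2b, ciarta and nr1d1) and 25 did not pass. The 6 past the threshold were 19.4% of the 31, against 0.339% of all genes tested. At an unadjusted p under 0.05, 10 were higher and 9 lower, together 61.3% of the list, compared with 13.6% of all genes tested. One of the 10, nr1d4a, averaged 0.946 FPKM at the other ages and entered the test only through its 24-month level. The median log2 difference of the list was 0.31, against -0.0047 for all genes tested. For 25 of the 31, or 80.6%, 24 months was the highest or lowest age, against 44.2% of all genes tested. The 24-month values of 13, or 41.9%, lay outside the range of the other 9 libraries, against 2.82% of all genes tested. Of these 13, 8 lay above, nr1d4a among them, and 5 below. 3 of the 31, per3, nr1d2b and nr1d4b, were set apart. The list was drawn up with earlier results of these data known, and clock genes vary together over the day, so its members are not independent of each other. Age and hour of collection cannot be told apart here, since the hour is not given for any library.

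The 4 genes that fell encode repressors of the loop. per3 (ENSDARG00000010519, chr11:39694894-39756935), a period repressor, stood at 3.51, 3.54 and 2.93 FPKM in the 24-month libraries. It was 13.8, 9.34 and 11.6 FPKM at 6 months, 12.02, 8.83 and 8.21 at 12 months and 11.4, 15.2 and 13.1 at 36 months. All 3 values at 24 months were below every other library, and per3 fell from 11.5 ± 2.36 (SD, n = 9) to 3.33 ± 0.346 FPKM (SD, n = 3; log2 difference -1.51, SE 0.15, adjusted p = 0.00521). A locus without a name lies over per3 in the same orientation, and the level of per3 is uncertain for that reason; the locus itself was at 0.299 FPKM or less in each library.

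nr1d2b (chr19:17941698-17948550), a Rev-erb beta receptor that represses Bmal transcription in mammals, was at 40.2, 37.6 and 30.9 FPKM at 24 months. The other ages gave 82.7, 70.201 and 70.01 FPKM at 6 months, 70.5, 61.9 and 67.6 at 12 months and 61.6, 64.05 and 51.4 at 36 months, with no overlap. It fell to 36.2 ± 4.82 FPKM (log2 difference -0.86, SE 0.11, adjusted p = 0.0138), and 73.2% of the gap to the young ages was gone at 36 months.

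The other pair of fallen clock genes had a different course. nr1d1 (chr3:23358104-23365675), the Rev-erb alpha receptor, went from 93.8, 57.7 and 49.9 FPKM at 6 months to 36.9, 31.3 and 25.6 at 12 months, 16.7, 10.4 and 10.8 at 24 months and 12.4, 12.7 and 9.63 at 36 months. Its 24- and 36-month values overlapped (adjusted p = 0.883 by limma), so the fall against the mean of the other ages (log2 difference -1.15, SE 0.20, adjusted p = 0.0469) rests on the 6- and 12-month libraries. Against 12 months alone its adjusted p was 0.0519 by limma. ciarta (chr19:9009509-9021143), which in mammals encodes the Clock and Bmal repressor Chrono, was at 53.8, 33.9 and 33.9 FPKM at 6 months and 34.7, 33.8 and 25.4 at 12 months, then at 14.4, 8.85 and 10.7 at 24 months and 16.1, 17.4 and 11.2 at 36 months. It fell at 24 months (log2 difference -1.17, SE 0.19, adjusted p = 0.04) and its difference from 36 months missed the threshold by limma (adjusted p = 0.461). Both calls were lost with libraries scaled to an equal sum.

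The 2 clock genes that rose are an activator gene and a Rev-erb family gene. arntl2 (chr18:15601115-15642344), which encodes a Bmal partner of Clock, was at 3.76, 2.75 and 4.47 FPKM at 24 months and at 0.518 to 2.08 FPKM in the other 9 libraries, and it rose (log2 difference 1.02, SE 0.18, adjusted p = 0.0469). By limma the adjusted p of arntl2 was 0.0507 against 12 months alone and 0.128 against 36 months alone. nr1d4b (chr11:1948136-1970845), a Rev-erb family receptor gene of fish, stood at 7.67, 12.1 and 4.88 FPKM at 24 months. At the other ages it ranged from 0.376 to 2.04 FPKM, and its rise was 6.35-fold in mean FPKM (log2 difference 1.98, SE 0.27, adjusted p = 0.0158). The rise of nr1d4b ran opposite to the falls of nr1d1 and nr1d2b, although the 3 belong to 1 receptor family. One of the set-apart loci without a name, at chr11:1947019-1947867, lies 268 bases beyond the 3′ end of nr1d4b and was higher at 24 months as well (5.73 FPKM against a mean of 1.35 FPKM; log2 difference 1.47, adjusted p = 0.0247). The locus and part of nr1d4b lie within CT573157.1, an antisense RNA gene annotated on the opposite strand to nr1d4b and listed at 0 FPKM in all 12 libraries. The locus has no strand in the deposited annotation, so to which of them its reads belong is uncertain.

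Further activator genes had 24-month values above all others without passing the threshold. clocka, the Clock activator, was at 3.46, 3.78 and 4.698 FPKM at 24 months and 0.391 to 2.14 FPKM elsewhere (log2 difference 1.12, SE 0.23, adjusted p = 0.0638). arntl1b, a Bmal1 gene, was at 13.05, 13.1 and 16.1 FPKM against 0.7297 to 7.59 FPKM (log2 difference 1.37, SE 0.34, adjusted p = 0.116). Its second copy arntl1a was at 31.9, 31.5 and 37.8 FPKM against 7.92 to 23.9 FPKM (log2 difference 0.84, SE 0.23, adjusted p = 0.15). In all 3 the lowest of the other values belonged to replicate 1 of 6 months, at 0.391, 0.730 and 7.92 FPKM. Without that library each of them passed the threshold, with adjusted p of 0.0441 for clocka, 0.0102 for arntl1b and 0.0183 for arntl1a. The clock list then had 6 members higher and 6 lower, while calls over all 16223 genes rose from 55 to 171. By limma voom on whole reads recovered from the FPKM, clocka passed as well and the list had 3 higher and 4 lower. Over all genes tested 75 passed by voom. The 6 calls of the list also rested on single libraries in the other direction. They became 1 without replicate 1 or without replicate 2 of 24 months, 2 without replicate 3 of 24 months, and 3 without the first or the second library of 12 or of 36 months. They were 3 as well without a filter on low values, with 2 group means and against 12 and 36 months only. Over all genes tested the calls fell from 55 to 7, 14 and 19 without replicates 1, 2 and 3 of 24 months in turn. per3 was the clock gene that kept its call without each library in turn.

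**Figure D2:**
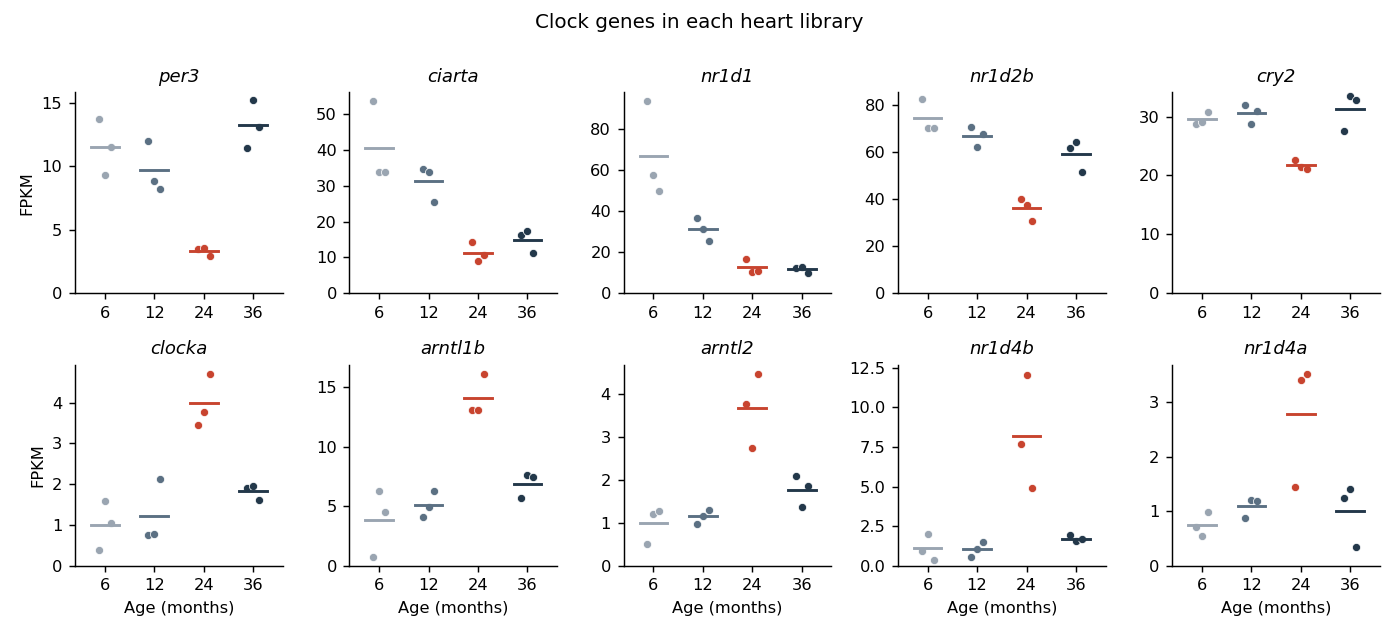
FPKM of 10 clock genes in each library by age in months, with points for libraries and horizontal bars for age means; each vertical axis starts at 0. The 24-month libraries (red) lie below all others for per3, nr1d2b and cry2 and above all others for clocka, arntl1b, arntl2, nr1d4b and nr1d4a, while for nr1d1 and ciarta they overlap the 36-month libraries.

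Among cryptochromes, which in vertebrates include repressors of Clock and Bmal, members lay on both sides and none passed. cry2 was at 22.6, 21.4 and 21.2 FPKM at 24 months and at 27.6 to 33.5 FPKM elsewhere, below all other libraries in a narrow range (log2 difference -0.47, SE 0.09, adjusted p = 0.0573). cry-dash, a member of the photolyase family, was also below all others at 4.49, 5.98 and 4.93 FPKM against 6.46 to 11.3 FPKM (log2 difference -0.71, SE 0.15, adjusted p = 0.0829). cry1ab was on the other side at 35.99, 23.5 and 33.7 FPKM against 13.9 to 31.5 FPKM, with overlap (log2 difference 0.54, SE 0.17, adjusted p = 0.186). per2, a light-induced period gene in zebrafish, had values of 22.6, 27.3 and 23.8 FPKM at 24 months that fell among the 21.4, 27.7 and 30.4 FPKM of 12 months. A locus without a name, at 1.23 FPKM or less in each library, overlaps per2 on the same strand, and per2 is uncertain.

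Output and accessory genes of the clock were likewise spread. bhlhe41, a Dec repressor, was at 15.3, 11.5 and 15.3 FPKM at 24 months, below all other libraries, but those ranged from 16.6 to 107 FPKM and the gene did not pass (log2 difference -1.35, SE 0.50, adjusted p = 0.266). fbxl3a, whose mammalian counterpart marks cryptochromes for breakdown, was at 43.5, 44.7 and 47.4 FPKM against 18.7 to 37.7 FPKM (log2 difference 0.54, SE 0.14, adjusted p = 0.134). hlfb, a bZIP output factor, was at 8.34, 8.48 and 11.8 FPKM against 1.19 to 7.26 FPKM (log2 difference 0.91, SE 0.29, adjusted p = 0.202). nfil3-5, a bZIP repressor gene, overlapped widely, with 148, 116 and 66.3 FPKM at 24 months and 6.32 to 123 FPKM elsewhere (log2 difference 1.46, SE 0.66, adjusted p = 0.366). nfil3-5 is overlapped by palm3 on the same strand and is uncertain.

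**Figure D3:**
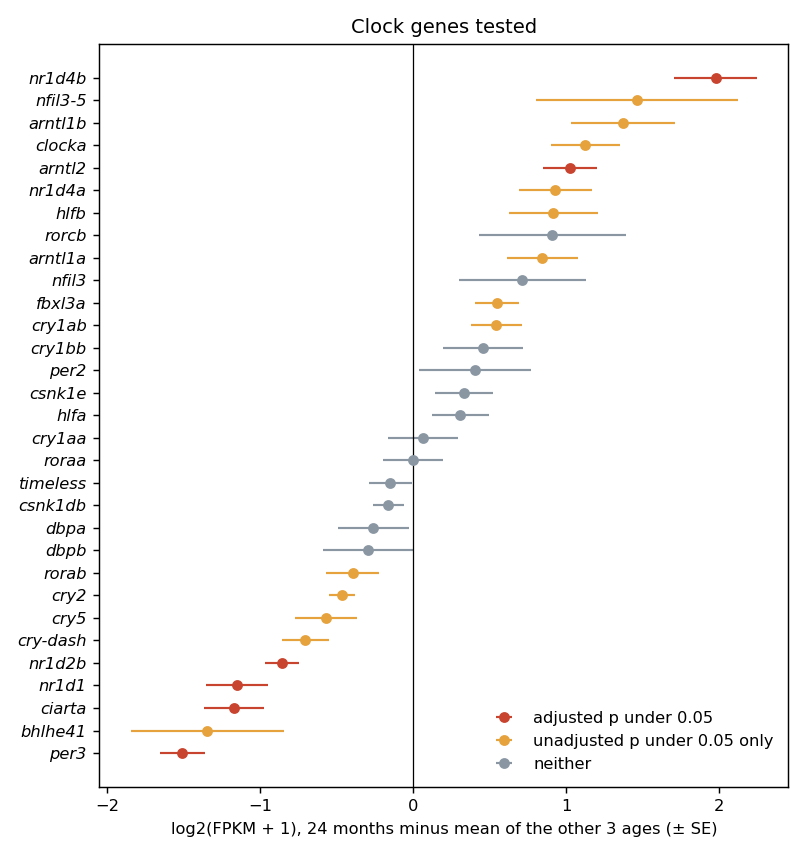
Log2 difference of the 31 clock genes tested, 24 months minus the mean of the other 3 ages, with SE as horizontal bars. Red marks the 6 genes past the adjusted threshold, orange the genes with an unadjusted p under 0.05 alone, and grey the rest; clocka and the 3 arntl genes lie to the right, and per3, ciarta, nr1d1, nr1d2b and cry2 to the left.

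The other 16 clock genes averaged under 1 FPKM and were not tested, and 15 of these are overlapped on the same strand by loci without a name. Whether reads of these genes were assigned to those loci was not tested. The loci over nr1d2a, bhlhe40 and per1a were at 0 FPKM in all 12 libraries. Those over cry4, per1b, npas2, fbxl3b, tefa and tefb were at 0.626 FPKM or less in each library. The loci over clockb, csnk1da, rorca, cry1ba, nfil3-6 and ciartb ranged from 1.37 to 92.9 FPKM. Over all 20 clock genes with such an overlap, 8 overlapping loci were themselves tested. By limma and by voom 0 of the 8 passed the threshold. Before adjustment (p under 0.05) 1 of the 8 was higher and 3 were lower, where 13.6% of all genes tested reached that p. The higher locus lies over cry1bb, which was itself tested. The locus over ciartb, the second Chrono gene, was at 7.13, 8.03 and 8.29 FPKM at 24 months, below the 8.54 to 19.1 FPKM of the other libraries (log2 difference -0.59, adjusted p = 0.0623).

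Outside the clock, rcan3 (ENSDARG00000032623, chr17:26861334-26908186), a regulator of the calcium-dependent phosphatase calcineurin, showed one of the largest rises. It stood at 48.5, 55.9 and 72.02 FPKM at 24 months. The other ages gave 7.84, 16.8 and 18.3 FPKM at 6 months, 12.4, 16.7 and 13.99 at 12 months and 15.05, 18.7 and 17.9 at 36 months. No 24-month value came near the others, and rcan3 rose 3.84-fold in mean FPKM (log2 difference 1.89, SE 0.22, adjusted p = 0.00753), with 85.5% of the gap gone at 36 months. It was the 1 member past the threshold among 21 tested natriuretic peptides and stress markers of the heart. Before adjustment 4 of the 21 were higher and 1 lower (median 0.18), 23.8% against 13.6% of all genes tested.

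Within that list fhl2a, a LIM protein of heart muscle, had a difference of 0.76, adjusted p = 0.0966. acta1a, a skeletal muscle actin that heart muscle can re-express, had 1.08, adjusted p = 0.25 with overlapping values. Both missed the threshold. The sarcomere list had 0 of 24 members past it by limma and by voom. Unadjusted, 3 were higher and 1 lower, 16.7% of that list against 13.6% of all genes tested.

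cdkn1a (ENSDARG00000076554, chr22:565659-570089), the p21 inhibitor of cyclin-dependent kinases and a p53 target, was at 45.8, 53.1 and 53.9 FPKM at 24 months. At 6 months it was at 25.7, 20.1 and 15.8 FPKM, at 12 months at 16.7, 20.7 and 18.9 and at 36 months at 24.9, 22.98 and 14.3. The 24-month level was 2.55-fold that of the other libraries without overlap (log2 difference 1.33, SE 0.18, adjusted p = 0.0157), and 95.97% of the gap was gone at 36 months. The call was lost without any single 24-month library, with adjusted p up to 0.1003.

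No other member of the cell cycle list or of the p53 and senescence list passed. In the cell cycle list 67 genes were tested, 2 of them under 1 FPKM on average at the other ages. Before adjustment 11 were higher and 0 lower (median 0.23), 16.4% of the list against 13.6% of all genes tested. Its next members were proliferation genes, namely the mitotic kinase genes cdk1 (0.84, adjusted p = 0.255) and aurkb (0.93, adjusted p = 0.265) and the cytokinesis gene anln (0.70, adjusted p = 0.277), each with values that overlapped other ages. These 3 are known to serve cell division, which cdkn1a inhibits. In the p53 and senescence list 51 genes were tested. Unadjusted, 1 was higher and 8 lower (median -0.07), 17.6% of the list against 13.6% of all genes tested. The p53 targets pmaip1 (-1.19, adjusted p = 0.103), btg2 (-1.16, adjusted p = 0.136) and sesn1 (-0.70, adjusted p = 0.165) had negative differences and did not pass. perp, a p53 target counted here among the epithelial genes, had a positive difference like cdkn1a and came closer to the threshold (25.1, 28.3 and 28.96 FPKM at 24 months against 9.19 to 19.6 FPKM; log2 difference 0.93, SE 0.18, adjusted p = 0.0618). It is overlapped by ppp3r1a on the same strand and is uncertain. btg2 and sesn1 are overlapped by loci without a name and are uncertain.

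ypel3 (chr3:26055282-26061089), a yippee-like gene whose human counterpart slows growth of cells in culture, varied little between libraries of the same age. Its level was 25.2, 24.4 and 26.5 FPKM at 24 months. It was 12.04, 13.8 and 11.1 FPKM at 6 months, 12.5, 11.7 and 11.2 at 12 months and 10.8, 13.7 and 12.4 at 36 months. The 9 other libraries lay within a narrow band and 24 months was 2.09-fold higher (log2 difference 1.01, SE 0.10, adjusted p = 0.00521), with 97.97% of the gap gone at 36 months.

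sstr5 (chr3:11134947-11156436), a somatostatin receptor, was at 9.15, 5.53 and 7.41 FPKM at 24 months and at 2.24, 1.79 and 1.995 FPKM at 36 months. In the younger hearts it was at 0.0401, 0.508 and 0.525 FPKM at 6 months and 0.3897, 0.9098 and 1.78 at 12 months. It rose 6.52-fold (log2 difference 2.05, SE 0.22, adjusted p = 0.00637), and 61.9% of the gap was gone at 36 months, when its mean was still above every 6- and 12-month library. lhfpl2a (chr21:284299-308867), a tetraspan membrane protein gene, was at 34.6, 32.6 and 31.04 FPKM against 13.3 to 20.9 FPKM elsewhere and rose 1.95-fold (log2 difference 0.94, SE 0.12, adjusted p = 0.0157).

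Further named rises passed the contrast without overlap and missed 1 or more of the pairwise tests. klhl24a, a kelch-like adaptor of a ubiquitin ligase, was at 74.6, 60.4 and 57.9 FPKM at 24 months against 25.97 to 40.8 FPKM elsewhere (log2 difference 0.91, SE 0.15, adjusted p = 0.043). unc119b, a carrier of lipidated proteins to cilia, was at 17.9, 10.16 and 13.2 FPKM against 3.14 to 8.06 FPKM (log2 difference 1.33, SE 0.20, adjusted p = 0.0262). efnb3b, an ephrin ligand gene, was at 19.2, 19.4 and 18.8 FPKM against 6.47 to 15.8 FPKM (log2 difference 0.83, SE 0.15, adjusted p = 0.0469). The remaining 5 had log2 differences of 2.47 (soul5l, of the haem-binding SOUL family), 1.84 (itga10, an integrin alpha chain), 1.26 (cacna1ab, a voltage-gated calcium channel), 1.18 (adam19b, a metalloprotease) and 0.71 (nlrc3l, a NOD-like receptor). adam19b is overlapped by a locus without a name and itga10 by polr3c on the opposite strand, and both are uncertain. soul5l showed the largest ratio among the named genes, 6.54 ± 0.566 FPKM against 0.638 ± 1.45, but 1 library of 36 months was at 4.48 FPKM while the 8 others were under 0.5.

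hsf2 (ENSDARG00000053097, chr20:40578466-40590174), a heat shock transcription factor, fell at 24 months. Its level was 5.74, 4.66 and 6.17 FPKM at 24 months and 9.73, 14.1 and 10.1 FPKM at 36 months. At 6 months it was 22.5, 16.4 and 17.8 FPKM and at 12 months 15.6, 14.9 and 16.9. The 24-month level was below all others (log2 difference -1.29, SE 0.14, adjusted p = 0.00637), with 60.9% of the gap gone at 36 months, when the values were still below the 6- and 12-month ones. Of 50 heat shock proteins and cochaperones tested, hsf2 was the 1 past the threshold. Before adjustment (p under 0.05) 1 was higher and 8 lower, 18% of the list (median -0.13) against 13.6% of all genes tested. The constitutive chaperone hsc70 (-0.69, adjusted p = 0.0935), the chaperonin subunit cct2 (-0.67, adjusted p = 0.0941) and the Hsp90 cochaperone fkbp4 (-0.42, adjusted p = 0.124) came next and did not pass. cct2 is overlapped by pacsin2 on the same strand and is uncertain.

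dnajc12, a J-domain cochaperone gene not on that list, was at 29.6, 27.6 and 32.3 FPKM at 24 months, 46.98, 45.3 and 44.98 at 36 months, 48.6, 55.4 and 73.2 at 6 months and 76.5, 68.2 and 69.5 at 12 months. It fell without overlap (log2 difference -0.93, SE 0.12, adjusted p = 0.0129), and its difference from 36 months alone missed the threshold (adjusted p = 0.0749 by limma). Further named genes fell and missed 1 or more of the pairwise tests. coa3b, an assembly factor of cytochrome c oxidase, was at 57.5, 55.1 and 50.2 FPKM against 61.7 to 112 FPKM (log2 difference -0.74, SE 0.13, adjusted p = 0.04996). ca5a, a mitochondrial carbonic anhydrase, was at 45.7, 34.3 and 32.5 FPKM against 50.6 to 90.3 FPKM (log2 difference -0.77, SE 0.14, adjusted p = 0.0469). Against 6 months alone the adjusted p by limma was 0.146 for coa3b and 0.161 for ca5a, and against 36 months alone 0.0566 and 0.0672.

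pcgf1, a Polycomb subunit, fell to 1.96 ± 0.0603 FPKM from 3.88 ± 0.626 (log2 difference -0.71, SE 0.13, adjusted p = 0.0469). Its adjusted p by limma was 0.0899 against 12 months alone and 0.0663 against 36 months alone. mob1bb, an activator of Hippo pathway kinases, fell to 11.7 ± 0.356 FPKM from 19.9 ± 4.75 (log2 difference -0.69, SE 0.10, adjusted p = 0.02). Only 30.9% of the mob1bb gap was gone at 36 months, when it was at 13.03, 15.3 and 14.8 FPKM. slc12a7b, a potassium-chloride cotransporter gene that a locus without a name overlaps and that is therefore uncertain, fell to 2.21 ± 0.348 FPKM (log2 difference -0.81, SE 0.12, adjusted p = 0.0267) with 26.1% gone.

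**Figure D4:**
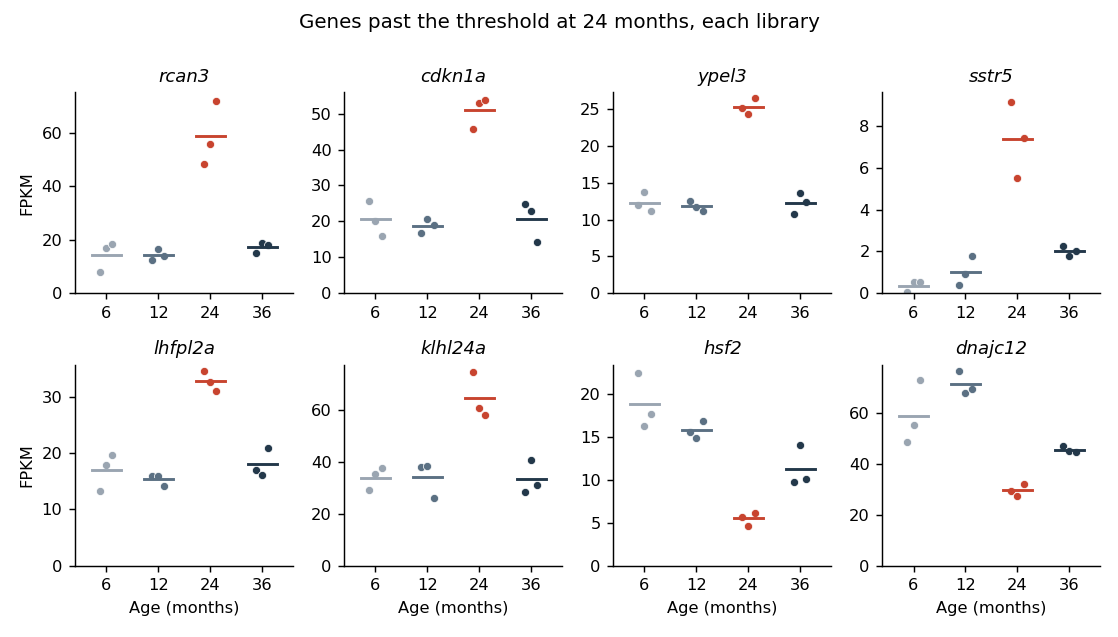
FPKM of 8 named genes past the threshold in each library by age in months, with points for libraries and horizontal bars for age means; each vertical axis starts at 0. For all 8 the 24-month libraries (red) do not overlap the other ages; rcan3, cdkn1a, ypel3, lhfpl2a and klhl24a are back at the younger level at 36 months, while sstr5, hsf2 and dnajc12 lie between.

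Some genes still near their 24-month level at 36 months passed the contrast without being reversed. orai2, a store-operated calcium channel gene, was at 15.7, 19.4 and 17.5 FPKM at 24 months and 18.3, 14.7 and 17.9 at 36 months, after 6.78, 7.34 and 8.56 at 6 months and 7.16, 9.65 and 9.14 at 12 months (log2 difference 0.70, SE 0.12, adjusted p = 0.0469). slc23a2, a vitamin C transporter gene, was at 6.52, 6.49 and 6.62 FPKM at 24 months and 5.66, 6.67 and 5.56 at 36 months, after 1.64, 1.61 and 2.07 at 6 months and 2.696, 3.15 and 3.69 at 12 months (log2 difference 0.81, SE 0.11, adjusted p = 0.0158). Its values at 12 months already lay above those at 6 months without overlap (log2 difference 0.59, SE 0.14, adjusted p = 0.188 by limma). ches1, a forkhead factor gene, had means of 4.71 ± 0.384 FPKM at 6 months, 6.74 ± 0.8603 at 12 months, 13.9 ± 0.7504 at 24 months and 12.9 ± 2.35 at 36 months (log2 difference 0.82, SE 0.12, adjusted p = 0.0216). For these 3 the difference between 24 and 36 months had adjusted p of 0.905, 0.706 and 0.738 by limma. Their 24-month values overlapped those of 36 months and none of 6 or 12 months.

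Matrix and signalling lists each had 1 member past the threshold. fbn1, which encodes the microfibril protein fibrillin, was at 45.6, 48.9 and 48.8 FPKM at 24 months and 37.6, 42.7 and 45.9 at 36 months, with 27.2 to 45.9 FPKM over all other libraries (log2 difference 0.52, SE 0.09, adjusted p = 0.0469). Its difference between 24 and 36 months had an adjusted p of 0.439 by limma, and 26.8% of the gap was gone at 36 months. At 36 months it was itself above 6 months (adjusted p = 0.0209) and 12 months (adjusted p = 0.0488) by limma. fbn1 was the 1 called of 72 matrix genes tested, of which 2 averaged under 1 FPKM at the other ages. Unadjusted, 9 of the 72 were higher and 2 lower, 15.3% against 13.6% of all genes tested. fzd1, a Wnt receptor gene, was at 5.06, 4.85 and 4.99 FPKM against 1.88 to 3.897 FPKM (log2 difference 0.69, SE 0.11, adjusted p = 0.0305). By limma its adjusted p was 0.0654 against 6 months alone and 0.125 against 36 months alone. fzd1 was the 1 called of 62 Notch, TGF-beta, BMP and Wnt genes, of which 3 averaged under 1 FPKM at the other ages. Unadjusted, 14 of the 62 were higher and 1 lower (median 0.10), 24.2% against 13.6% of all genes tested. The ligand gene tgfb2 (0.54, adjusted p = 0.191), the Notch target her6 (0.49, adjusted p = 0.225) and the BMP receptor gene bmpr2b (0.46, adjusted p = 0.248) came next.

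Immune lists had no member past the threshold by limma. Of 31 interferon-stimulated genes 0 passed by limma or voom. At an unadjusted p under 0.05 there were 0 higher and 5 lower (median -0.30), 16.1% against 13.6% of all genes tested. The antiviral genes mxe (-1.10, adjusted p = 0.197), rsad2 (-1.14, adjusted p = 0.264) and mxa (-0.86, adjusted p = 0.272) and the regulator irf7 (-0.65, adjusted p = 0.2) had overlapping values. mxa is overlapped by mxb on the same strand and is uncertain. Of 47 macrophage and granulocyte genes 0 passed by limma and 1 lower gene by voom, and 1 averaged under 1 FPKM at the other ages. Unadjusted, 5 were higher and 1 lower (median -0.0047, as over all genes tested), 12.8% against 13.6% of all genes tested. mpx, the myeloperoxidase of neutrophils, was at 18.6, 26.7 and 15.08 FPKM at 24 months and at 0.348 to 13.9 FPKM elsewhere, without overlap (log2 difference 2.42, SE 0.64, adjusted p = 0.134). lyz, a lysozyme of myeloid cells, was at 347, 1336 and 781 FPKM against 10.7 to 686 FPKM, with overlap (log2 difference 2.92, SE 0.74, adjusted p = 0.124). The arginase gene arg2 went the other way and came closer to the threshold than mpx and lyz (log2 difference -1.20, adjusted p = 0.0575 by limma).

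The 5 macrophage and granulocyte markers summed to 413 to 1407 FPKM at 24 months, 37.2 to 180 at 6, 168 to 339 at 12 and 108 to 763 FPKM at 36 months. At 24 months most of that sum was lyz, at 347 to 1336 FPKM. marco was at 0 in all libraries. mpeg1.1 lay at 29.9 to 47.8 FPKM at 24 months, inside the 19.7 to 91.3 FPKM of the other ages. csf1ra lay at 0 to 0.918 FPKM, inside the 0 to 2.85 FPKM of the other ages. The 5 erythrocyte markers summed to 1209 to 2947 FPKM at 24 months, 2168 to 5634 at 6, 5722 to 6671 at 12 and 2475 to 4008 FPKM at 36 months, with hbaa1 at 0 throughout. Most of the erythrocyte sum was hbba2, at 1179 to 2902 FPKM at 24 months and 2128 to 6610 FPKM at the other ages. The thrombocyte markers summed to 45.1 to 47.2 FPKM at 24 months, against 23.5 to 47.0 FPKM elsewhere. The 6 markers of fibroblasts, epicardium and mural cells summed to 328 to 512 FPKM at 24 months, 386 to 575 at 6, 246 to 297 at 12 and 197 to 266 FPKM at 36 months. The 24-month sums overlapped those of 6 months and lay above those of 12 and 36 months. Most of that sum was rgs5a, a mural cell gene, at 262 to 453 FPKM at 24 months, inside the 137 to 533 FPKM of the other ages, and tbx18 was at 0 throughout. The part of these cell types in the genes above was not tested. In bulk heart RNA, fewer cells of a type and less RNA per cell cannot be told apart.

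The list of fibroblasts, epicardium and mural cells had 0 of 25 genes past the threshold by limma or voom. Before adjustment (p under 0.05) 4 were higher and 4 lower, 32% of the list against 13.6% of all genes tested, with a median of -0.12. itga8, an integrin alpha chain gene, was at 25.3, 25.1 and 15.3 FPKM at 24 months and 6.104 to 19.1 FPKM elsewhere (log2 difference 0.80, SE 0.19, adjusted p = 0.0966). lmod1b, a leiomodin gene of smooth muscle (0.37, adjusted p = 0.163), and kcnj8, a potassium channel gene of mural cells (0.46, adjusted p = 0.247), also had positive differences with overlapping values. The chemokine gene cxcl12b lay below all other libraries at 9.79, 2.84 and 11.04 FPKM against 11.7 to 31.9 FPKM (log2 difference -1.10, SE 0.36, adjusted p = 0.213).

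**Figure D5:**
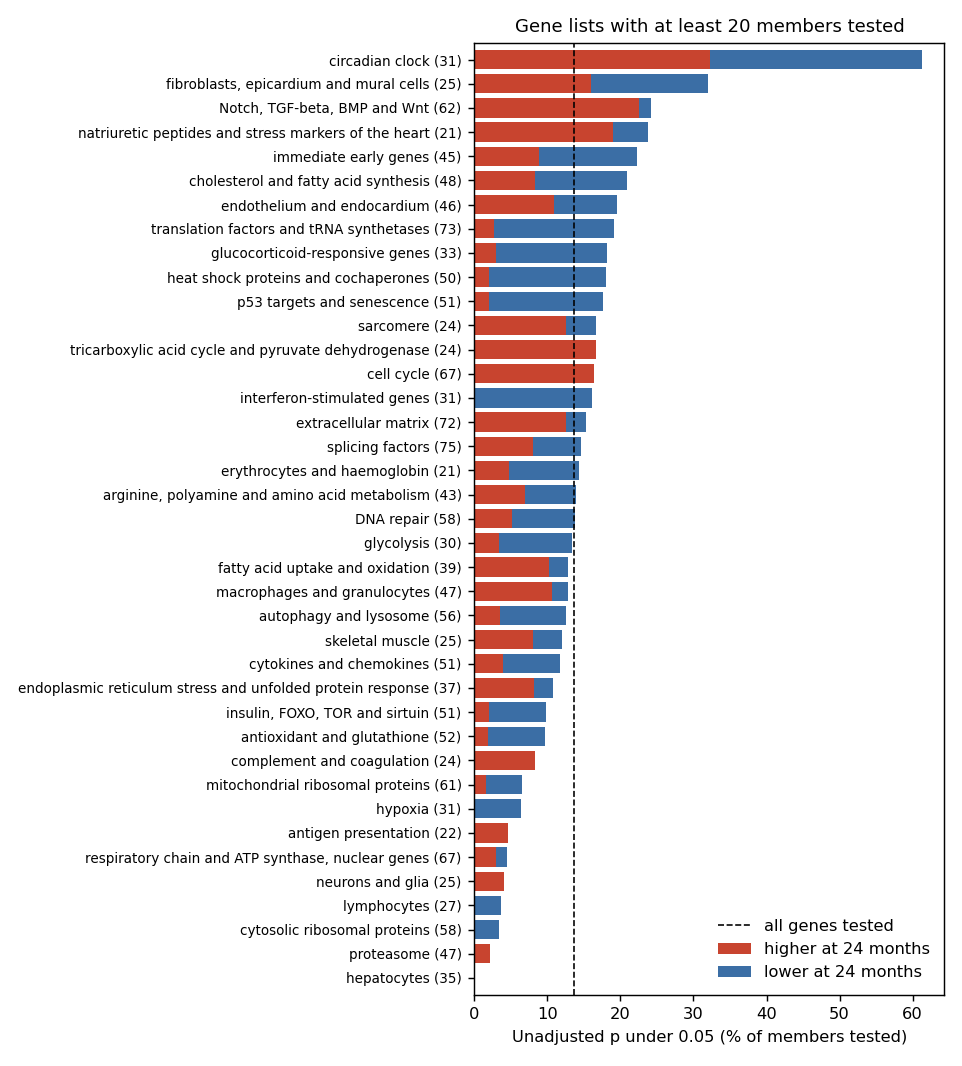
Share of the members tested with an unadjusted p under 0.05 at 24 months, higher (red) and lower (blue), for every list with at least 20 members tested, with the number tested in brackets. The dashed line is the 13.6% of all genes tested; the circadian clock list reaches 61.3% and the next list, of fibroblasts, epicardium and mural cells, 32%.

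Of the 32 genes with a proper symbol that are described here and passed the threshold, rcan3, ypel3, per3 and hsf2 kept the call without each single library in turn, at adjusted p of up to 0.0478. The other 28 lost it without at least 1 library: sstr5 without replicate 1 of 24 months alone (adjusted p = 0.0557), nr1d4b without replicates 1 and 2 of 24 months, and nr1d2b and lhfpl2a without each 24-month library. arntl2, fbn1, orai2, lrrc1 (a leucine-rich repeat scaffold gene), nlrc3l, coa3b and pcgf1 lost it without 10 of the 12 libraries. Over 93 genes checked, those past the threshold and those named from the lists, the log2 difference changed sign in none of the 27 alternatives. Most of these genes were chosen by their difference in the same libraries that the alternatives refit, which leaves little room for a change of sign.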

How the data were processed

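The authors deposited FPKM values, 1 column per library, in 4 tables with the same 50640 genes, 15524 of them loci without a name. Bases were called with CASAVA 1.8 and reads aligned to GRCz11 with HISAT2 2.0.5, per the submitters' processing notes. The counting tool and annotation release are not given in the sources used here. FPKM times gene length gave whole reads within 0.01 read for 100% of values.

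Genes with a mean of at least 1 FPKM were tested on log2(FPKM + 1), a pseudocount of 1, with limma 3.58.1 in R 4.3.3. The fit had 4 age means and 8 residual degrees of freedom. Its contrast set 24 months against the mean of the other 3, with eBayes and trend. The code was run on simulated data with independent normal noise of equal spread in all libraries. Those data hold no outlying library and no genes that vary together, so they do not support the calls made here. The contrast, the 46 gene lists and the rules for naming genes were chosen with earlier results of these data known. Named were up to 15 protein-coding rises and falls with a symbol, set apart first and then without overlap, up to 4 members per list by p, all clock genes, and the 2 largest noncoding differences each way. The genes that kept their level at 36 months, fbn1, fzd1, gapdh, lyz and mpx were described after their values were seen. Per library, counting error is small for genes above a few FPKM and large near 1 FPKM, where a gene of 1 kilobase gains 0.0878 to 0.136 FPKM per read. Intervals for single libraries are not given. Alternatives changed the pseudocount, the filter, the scaling, the variance model, the groups compared and the libraries included.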

Additional observations from a re-analysis of the deposited data

How the results depend on the processing

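The 55 genes past the threshold became 35 without a filter, 25 with a replicate block, 16 with 2 group means, 33 when a log2 difference of at least 1 was required and 355 with library quality weights (array weights). Leaving out 1 library gave 7 to 171 genes, lowest without replicate 1 of 24 months and highest without replicate 1 of 6 months. The count moved by less than 1.5 times under the other settings, with 59 higher and 16 lower by voom. The 13 genes set apart became 8 without loci without a name and the genes they overlap, 5 with the replicate block, 8 without the variance trend, 6 by voom and 32 with array weights, and 0 to 26 without 1 library, reaching 0 without the first 24-month library and without either of the first pair of 12-month libraries. This count could not be fitted with 2 group means. The 11 called genes of the lists became 6 without a filter, 17 with quantile normalization, 41 with array weights, 6 with 2 group means and 3 to 29 without 1 library. The cause of these shifts was not tested. The labels do not say whether replicate numbers pair the libraries. Over 18 pairs of the same number the correlation of deviations ran from -0.154 to 0.106, with 1 over 0.1. These correlations were taken over all genes tested, so they cannot exclude a pairing that affects few genes. Of the 6 clock calls 5 were made with the replicate block. Leaving out a library also leaves fewer residual degrees of freedom. Depth limits genes near 1 FPKM, and 3 libraries per age limit what can be called: a gene that did not pass is not shown to be equal at all ages.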

Other observations

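Noncoding genes gave no call at 24 months. Of 362 lincRNA, antisense and other noncoding genes tested, 0 passed by limma or voom, with 20 higher and 28 lower before adjustment (p under 0.05). Of all genes tested 13.6% reached that p. The largest positive differences were those of BX465228.1, at 9.36, 5.42 and 6.19 FPKM against 0 to 4.36 FPKM (log2 difference 1.91, SE 0.55, adjusted p = 0.167), and of CR753876.1, at 593, 593 and 657 FPKM against 73.9 to 539.9 FPKM (log2 difference 1.64, SE 0.41, adjusted p = 0.118). CR753876.1 is overlapped by a locus without a name and is uncertain. The largest negative differences were those of CU463284.2 (-1.59, adjusted p = 0.28) and CR318588.1 (-1.53, adjusted p = 0.308), both with overlapping values.

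Lists of energy metabolism had no member past the threshold by limma or voom. Tested were 30 genes of glycolysis, 39 of fatty acid uptake and oxidation, 24 of the tricarboxylic acid cycle and 67 of the respiratory chain. At an unadjusted p under 0.05 these had 1 higher and 3 lower, 4 and 1, 4 and 0, and 2 and 1. In that order these were 13.3%, 12.8%, 16.7% and 4.48% of the lists, against 13.6% of all genes tested. Within glycolysis the lactate transporter slc16a1a (-1.52, adjusted p = 0.16), the lactate dehydrogenase ldhbb (-0.76, adjusted p = 0.308) and gapdh (-0.74, adjusted p = 0.324) had negative differences, and the isomerase gpia (0.23, adjusted p = 0.353) a positive one, with a median of 0.04 over the list. gapdh was at 13512, 10427 and 8975 FPKM at 24 months, above the 6766 FPKM of replicate 1 of 6 months and below the other 8 libraries. Of 9 thrombocyte genes 0 passed by limma or voom and 2 were higher unadjusted, 22.2% against 13.6% of all genes tested. The thrombopoietin receptor mpl lay above all other libraries (log2 difference 0.84, SE 0.16, adjusted p = 0.0618). In the cholesterol and fatty acid synthesis list 4 genes were higher and 6 lower unadjusted among 48, 20.8% against 13.6% of all genes tested. The sterol synthesis enzyme lss (-0.66, adjusted p = 0.116) and thrsp, a promoter of fatty acid synthesis (-2.85, adjusted p = 0.177), lay below all others and insig2, a brake on sterol synthesis (0.35, adjusted p = 0.156), above. None of these passed.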
